A study of Mus musculus with 4 samples.

Results

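A set of 10 genes of the switch that carries a cell out of G1, the phase before DNA synthesis, were followed in early mouse B cells: the D-type cyclins Ccnd1, Ccnd2 and Ccnd3, the kinases Cdk4 and Cdk6, the inhibitors Cdkn1b, Cdkn2c and Cdkn2d, and Rb1 and Rbl2 of the retinoblastoma family. They were taken by name from the list of D-type cyclins, cyclin-dependent kinases, inhibitors and Rb family genes, and all 10 were found by symbol among the 55573 gene identifiers measured. The cells came from the bone marrow of C57BL/6 mice of 8 to 12 weeks and were sorted as Fr.C+C', a fraction that in Hardy's scheme holds late pro-B and large cycling pre-B cells. Wild type animals gave the libraries WT 1 and WT 2, and animals labelled ADAR1 KO gave KO 1 and KO 2 (2 libraries in each group). ADAR1 is the enzyme that turns adenosine into inosine in double-stranded RNA. The knockout allele, any Cre driver and the animal behind each library were not given in the sources used here. The p-values therefore measure only how far these libraries spread, and that spread may be technical. Where 4 values follow each other below, their order is WT 1, WT 2, KO 1, KO 2.

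D-type cyclins are the cyclins that answer growth signals. They bind and activate CDK4 and CDK6, which phosphorylate the retinoblastoma proteins and so release E2F transcription factors that switch on cyclin E, cyclin A and the genes of DNA synthesis. The INK4 inhibitors, p18 from Cdkn2c and p19 from Cdkn2d, bind the CDK4 and CDK6 kinases, and p27 from Cdkn1b holds back cyclin E with CDK2. In the bone marrow, interleukin 7 and the pre-B cell receptor drive this switch, and cyclin D3 is known to be needed for the expansion of pre-B cells.

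The libraries held between 15122475 and 16413050 fragments by the steps of their low values, and the 10 genes between 255 (Ccnd1 in WT 2) and 15534 (Ccnd3 in WT 1) estimated fragments in a library. Adar itself was at 15.04 and 14.62 FPKM (fragments per kilobase of exon, scaled to library size) in WT 1 and WT 2 and at 15.19 and 16.79 FPKM in KO 1 and KO 2. A value over the whole gene does not check the loss of some exons, so groups are named as the labels name them. Markers of the labelled cells were present in every library: Pax5 was at 86.51, 102.41, 90.21 and 42.91 FPKM, and Igll1 of the surrogate light chain at 204.32, 189.18, 198.43 and 134.54 FPKM. Its partner Vpreb1 was at 213.23, 180.25, 260.89 and 155.96 FPKM, and Cd79a of the B cell receptor at 436.24, 435.96, 193.59 and 96.80 FPKM, lower in both KO libraries. KO 2 stood apart. The summed level of 20 B-lineage genes was 3345 and 3494 FPKM in the wild type libraries, 2757 FPKM in KO 1 and 1566 FPKM in KO 2, while 15 neutrophil genes summed to 27726 and 25897 FPKM, 36373 FPKM and 74094 FPKM. In these bulk samples fewer cells of a type and less RNA per cell cannot be told apart.

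None of the 10 genes passed the test between the groups. The test was limma on log2(FPKM + 1), with p-values adjusted by the Benjamini-Hochberg method over the 13281 genes whose mean reached 1 FPKM in one group or the other, a filter that all 10 genes passed in both groups. It called 27 genes in all, 27 lower and 0 higher in KO (0.203% of genes), a background against which 0 of 10 says nothing about the members. At an unadjusted p under 0.05 there was 1 of the 10, Cdkn2c, against 12.5% of all genes, and with voom, the weighted form of limma run on estimated fragments, there were likewise 0 adjusted calls and 1 unadjusted. The log2 change (KO minus WT) was negative for 8 of 10 genes, against 61.7% of all genes, with a median of -0.13 against -0.09 over all genes. When libraries were scaled instead to the median of 20 B-lineage genes, 0 of the 10 were negative, and the median of the 10 (0.49) was again near that of all genes (0.46). Both KO libraries lay below both wild type libraries for 3 of the 10 (31.7% of all genes did) and above both for 2 (19.7% of all genes did). The members thus did not stand out from the other genes by count or by median. The median of the 10 genes was 0.01 in KO 1 and -0.26 in KO 2 relative to the wild type mean, against -0.01 and -0.17 over all genes.

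**Figure D1:**
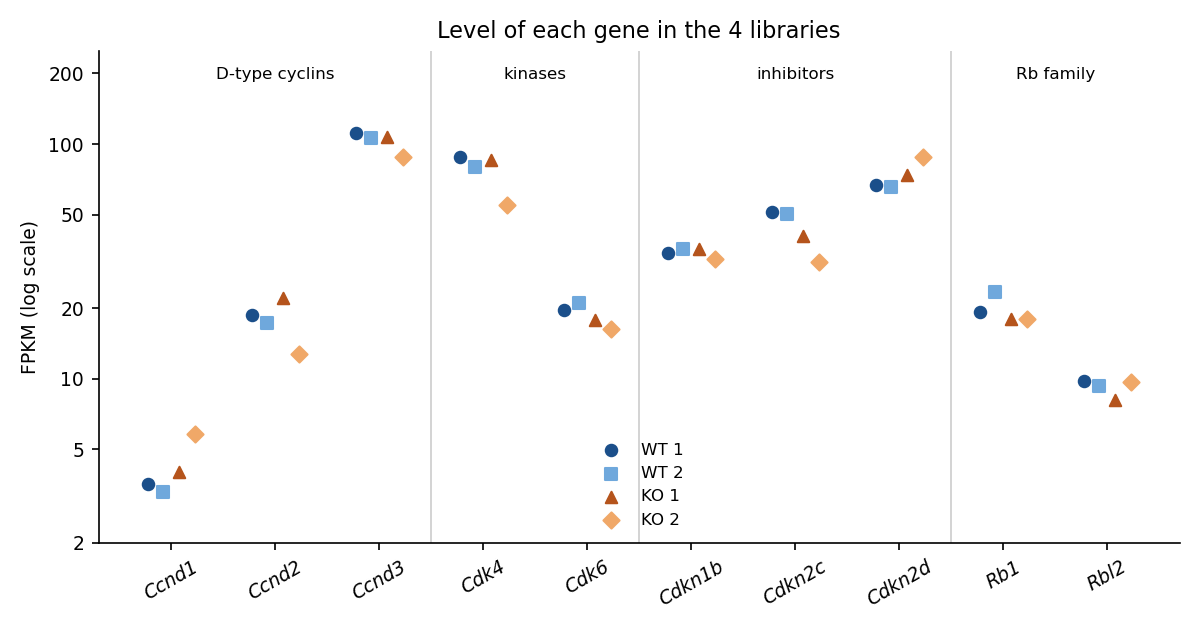
FPKM on a log axis of each of the 10 genes in WT 1, WT 2, KO 1 and KO 2, 1 point for each library, arranged by role. Ccnd3 was the most abundant in each group (87.74 to 112.03 FPKM) and Ccnd1 the least (3.3 to 5.81 FPKM), and KO 2 is the lowest library for Ccnd2, Cdk4 and Cdkn2c and the highest for Ccnd1.

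Cyclin D3 was the leading D-type cyclin in every library. Ccnd3 (ENSMUSG00000034165, GRCm38 chromosome 17, 47505051 to 47599691) was at 112.03 FPKM in WT 1, 106.24 FPKM in WT 2, 107.65 FPKM in KO 1 and 87.74 FPKM in KO 2. KO 1 lay between the wild type libraries and only KO 2 was lower, so the groups overlapped. The means were 109.1 ± 4.09 and 97.7 ± 14.1 FPKM (SD, n = 2), and the log2 change was -0.17 ± 0.17 (SE; 95% interval -0.61 to 0.28; adjusted p = 0.652, limma). That interval leaves room for anything from a level 0.657 times that of wild type to one 1.21 times as high.

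Ccnd2, the other D-type cyclin of lymphoid cells, showed the widest spread between the KO libraries among the 10 genes. Ccnd2 (ENSMUSG00000000184, chromosome 6, 127125162 to 127152193) was at 18.60 and 17.19 FPKM in WT 1 and WT 2, 22.15 FPKM in KO 1 and 12.68 FPKM in KO 2. KO 1 was above both wild type libraries and KO 2 below both. The log2 difference between KO 2 and KO 1 was -0.76, against -0.11 between WT 2 and WT 1, and the mean change of -0.09 ± 0.27 (SE; adjusted p = 0.883, limma) joins a difference of 0.29 in KO 1 to one of -0.46 in KO 2.

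Ccnd1, which most normal lymphocytes express little, was the lowest of the 10 genes. Ccnd1 (ENSMUSG00000070348, chromosome 7, 144929931 to 144939925) was at 3.55, 3.30, 3.98 and 5.81 FPKM, on 264, 255, 297 and 414 estimated fragments. Both KO libraries were above both wild type libraries, KO 2 by more than KO 1. The log2 change of 0.40 ± 0.20 (SE; 95% interval -0.12 to 0.92) did not pass (adjusted p = 0.466, limma). Of its exon bases, 23.4% are shared with exons of a gene on the opposite strand, listed as LTO1 and at 3.85, 4.18, 3.89 and 3.11 FPKM. The strand setting of the counting was not given in the sources used here, and reads of these 2 genes may not be separated. The order of the neutrophil sums (KO 2 highest, then KO 1) was also the order of Ccnd1, and the part of neutrophil RNA in it was not tested.

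Within each library Ccnd3 made up 83.5% and 83.8% of the summed D-type cyclin FPKM in wild type and 80.5% and 82.6% in KO 1 and KO 2. Ccnd2 gave 13.9% and 13.6% in wild type, 16.6% in KO 1 and 11.9% in KO 2, and Ccnd1 gave 2.65%, 2.60%, 2.98% and 5.47%. The balance of the D-type cyclins therefore moved by a few percentage points, with Ccnd3 leading in all libraries. No test was made of these shares, because the smallest p of an exact two-sided permutation of 2 against 2 libraries is 0.333. The share of a gene depends on the exon length the authors divided by. Counted in estimated fragments Ccnd3 still held 83.7%, 84.0%, 80.6% and 84.0%, with KO 2 then inside the wild type range.

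**Figure D2:**
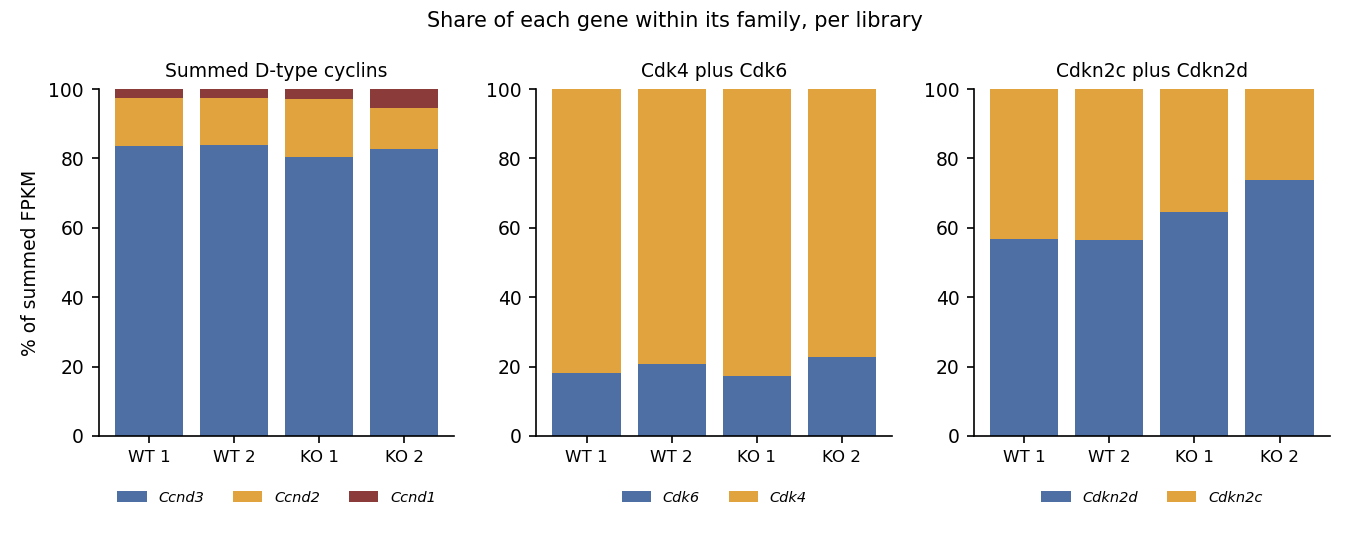
Stacked bars of each gene's percentage of the summed FPKM of its family in WT 1, WT 2, KO 1 and KO 2, for the D-type cyclins, the kinase pair and the INK4 inhibitor pair. The cyclin bars are alike across libraries (Ccnd3 80.5% to 83.8%), while the Cdkn2d part of the inhibitor pair is 56.7% and 56.5% in wild type, 64.6% in KO 1 and 73.8% in KO 2.

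Of the kinases that these cyclins activate, Cdk4 was lower in KO 2 alone. Cdk4 (ENSMUSG00000006728, chromosome 10, 127063534 to 127067920) was at 87.92 and 80.20 FPKM in WT 1 and WT 2, 85.92 FPKM in KO 1 and 55.13 FPKM in KO 2. KO 1 was within the wild type range. The log2 difference from the wild type mean was 0.03 in KO 1 and -0.60 in KO 2, and the change of -0.28 ± 0.25 (SE; 95% interval -0.91 to 0.34) did not pass (adjusted p = 0.603, limma). Exons of Tspan31 on the other strand cover 19.7% of the exon bases of Cdk4, and Tspan31 was at 10.97, 8.31, 10.45 and 12.75 FPKM, well under Cdk4.

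Cdk6, the second kinase partner of the D-type cyclins, was slightly lower in both KO libraries. Cdk6 (ENSMUSG00000040274, chromosome 5, 3341485 to 3531008) was at 19.63 and 20.96 FPKM in WT 1 and WT 2, 17.76 FPKM in KO 1 and 16.31 FPKM in KO 2. The groups did not overlap as deposited, though the sign turned with B-lineage scaling (0.37, which is -0.08 relative to the median of all genes). The log2 differences of KO 1 and KO 2 were -0.18 and -0.30. The change of -0.24 ± 0.14 (SE; 95% interval -0.59 to 0.11) did not pass (adjusted p = 0.487, limma), and 27.7% of all genes tested had a lower value.

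Per exon length, Cdk6 gave 18.3% and 20.7% of the kinase pair in wild type, 17.1% in KO 1 and 22.8% in KO 2, so the KO libraries lay on either side of the wild type values. This share depends strongly on length, since the union of Cdk6 exons spans 13989 bases against 3249 bases for Cdk4. By estimated fragments Cdk6 held 49.0%, 52.9%, 47.1% and 56.0%. The summed FPKM of both kinases was 107.6 and 101.2 in wild type, 103.7 in KO 1 and 71.4 in KO 2.

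Sequences before a RefSeq start of each kinase gene are shown. They hold the E-box, the letters CACGTG, to which MYC with MAX can bind, and MYC is a known inducer of Cdk4. Promoter windows from RefSeq (GRCm38.p6) were matched by symbol for 7 of the 10 genes (9 windows). The 250 bases before each start were searched on both strands. Ccnd1, Ccnd2 and Rb1 had no window and were not searched. Capitals mark each CACGTG, and only the part that no annotated exon covers is printed, chr10:127063285-127063533 (plus strand) for Cdk4 and chr5:3343643-3343731 (plus strand) for Cdk6. The Cdk6 stretch lies before a RefSeq start but inside the gene as annotated, which begins at 3341485. The second Ccnd3 window and both Cdkn2c windows likewise lie inside their annotated genes.
Cdk4: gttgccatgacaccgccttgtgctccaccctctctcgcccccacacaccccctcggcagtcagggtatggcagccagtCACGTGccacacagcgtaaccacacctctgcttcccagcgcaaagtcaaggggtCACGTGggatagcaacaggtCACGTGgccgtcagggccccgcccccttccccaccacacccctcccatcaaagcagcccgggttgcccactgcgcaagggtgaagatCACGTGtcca
Cdk6: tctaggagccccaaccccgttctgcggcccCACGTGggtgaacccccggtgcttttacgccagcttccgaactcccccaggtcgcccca

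Cdk4 held 4 such matches, which begin at bases -172, -118, -98 and -11 from the start, and Cdk6 held 1, at -220. Of 32851 windows of this length in the table, 6.02% held at least 1 CACGTG and 7 held 4 or more. The E2F core GGCGGGA, found in 9.75% of windows, was present once each in the windows of Cdkn2d (at -200) and of Cdkn2c (at -153 of the upstream start). Annotated exons of Cdkn2c reach the upstream end of that window, and the exon-free part of the Cdkn2d window ends at -199, within the match. The FOXO letters GTAAACA (3.17% of windows) were found in 1 of the 2 windows of Ccnd3, at -243, in the reverse direction. The CHR letters TTTGAA (16.0% of windows) were found once, in Rbl2 at -201, and none of the 9 windows held the longer E2F letters TTTGGCGC, TTTGCCGC, TTTCGCGC or TTTCCCGC (1.86% of windows), the last of which overlaps the core. CCAAT (33.9% of windows) was found in Cdkn1b, Cdkn2d and the second window of Ccnd3. These matches describe letters and show no binding. Beside them, Myc was at 47.28, 41.48, 57.04 and 32.83 FPKM and its relative Mycn at 1.09, 1.04, 1.80 and 0.90 FPKM: both were highest in KO 1 and lowest in KO 2. Mycn rested on 45 to 94 estimated fragments. Cdk4 and Cdk6 were also lowest in KO 2, but they were highest in WT 1 and WT 2 respectively. A link between these levels was not tested.

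Among the inhibitors, the p18 gene had the smallest p-value of the 10 genes. Cdkn2c (ENSMUSG00000028551, chromosome 4, 109660876 to 109667189) was at 51.27 and 50.37 FPKM in WT 1 and WT 2, 40.54 FPKM in KO 1 and 31.31 FPKM in KO 2. The wild type libraries were nearly equal and both KO libraries were lower, KO 2 by more. The mean was 50.8 ± 0.636 FPKM in wild type and 35.9 ± 6.53 FPKM in KO (SD, n = 2), a ratio of 0.707. The log2 change of -0.50 ± 0.17 (SE; 95% interval -0.95 to -0.05) had an unadjusted p of 0.0343 and did not pass after adjustment (adjusted p = 0.378, limma), and 7.12% of all genes had a lower value. Without KO 1 the log2 change was -0.68. That fit has 1 KO library, so no spread between KO libraries enters it. Without KO 2 the log2 change was -0.32. Scaled to the B-lineage genes its sign turned, to 0.13, though it was then still -0.33 relative to the median of all genes.

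Its sister gene Cdkn2d, whose product p19 also inhibits CDK4 and CDK6, went the other way. Cdkn2d (ENSMUSG00000096472, chromosome 9, 21288410 to 21291407) was at 67.02 and 65.52 FPKM in WT 1 and WT 2, 73.88 FPKM in KO 1 and 88.05 FPKM in KO 2. Both KO libraries were above both wild type libraries. The log2 change was 0.28 ± 0.16 (SE; 95% interval -0.13 to 0.69; adjusted p = 0.487, limma). It was positive under the 9 alternative settings that can move a fold change, but most of these could not have turned it. Leaving out 1 library keeps the sign when the groups do not overlap. Median centring and B-lineage scaling raised the median change of all genes. Neutrophil genes were likewise higher in both KO libraries, 14 of 15 of them above both wild type libraries (19.7% of all genes were), and highest in KO 2. Their part in the Cdkn2d values was not tested.

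With one INK4 gene lower and the other higher, their balance differed between libraries. This share was chosen after the values were seen. Cdkn2d held 56.7% and 56.5% of the pair in wild type, 64.6% in KO 1 and 73.8% in KO 2, a difference of 12.6 percentage points between the group means (69.2% ± 6.50 against 56.6% ± 0.0856, SD, n = 2). Counted in estimated fragments it held 43.4%, 43.3%, 51.6% and 62.2%. The order of the libraries is then the same by construction, as the fragments come from the same FPKM values and fixed exon lengths. Being a ratio within a library, it does not move with a rescaling of the whole library. It restates the values of the pair, neither of which passed the test. The summed level of the pair stayed close, at 118.3, 115.9, 114.4 and 119.4 FPKM.

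Cdkn1b, which encodes p27, was the most even of the inhibitors. Cdkn1b (ENSMUSG00000003031, chromosome 6, 134920401 to 134925513) was at 34.37, 35.55, 35.75 and 32.22 FPKM. KO 1 was the highest library and KO 2 the lowest. The log2 change was -0.04 ± 0.14 (SE; adjusted p = 0.890, limma), and its 95% interval of -0.40 to 0.31 allows a level between 0.760 and 1.24 times that of wild type. The 3 inhibitors together summed to 152.7, 151.4, 150.2 and 151.6 FPKM. The ratio of the INK4 sum to the kinase sum, also chosen after the values were seen, was 1.10 and 1.15 in wild type, 1.10 in KO 1 and 1.67 in KO 2. It thus differed in KO 2 only, where the kinase sum was lowest. Counted in estimated fragments the ratio was 0.434, 0.431, 0.427 and 0.547, so its size depends on exon length.

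The retinoblastoma family members differed little. Rb1, the founding member (ENSMUSG00000022105, chromosome 14, 73183673 to 73325822), was at 19.22 and 23.39 FPKM in WT 1 and WT 2 and at 17.94 and 18.00 FPKM in KO 1 and KO 2. Both KO libraries were the lower ones (the change was 0.39 with B-lineage scaling, which is -0.07 relative to the median of all genes, against -0.13 as deposited), but WT 1 was nearer to the KO libraries than to WT 2. The log2 difference between the wild type libraries (0.27) was larger than the change between the groups (-0.23 ± 0.15, SE; adjusted p = 0.534, limma). Rbl2, which encodes p130, the family member that acts with E2F4 in resting cells (ENSMUSG00000031666, chromosome 8, 91070057 to 91123844), was at 9.75, 9.27, 8.14 and 9.69 FPKM, with KO 2 inside the wild type range and KO 1 below it. Its log2 change was -0.09 ± 0.15 (SE, adjusted p = 0.775, limma). Exons on the other strand cover 11.8% (Gm45464) and 9.17% (Aktip) of the exon bases of Rbl2. For Rb1 they cover 8.11% (Rcbtb2) and 6.78% (Lpar6). Aktip was at 2.47, 2.43, 2.65 and 2.97 FPKM, and its reads may not be separated from those of Rbl2.

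**Figure D3:**
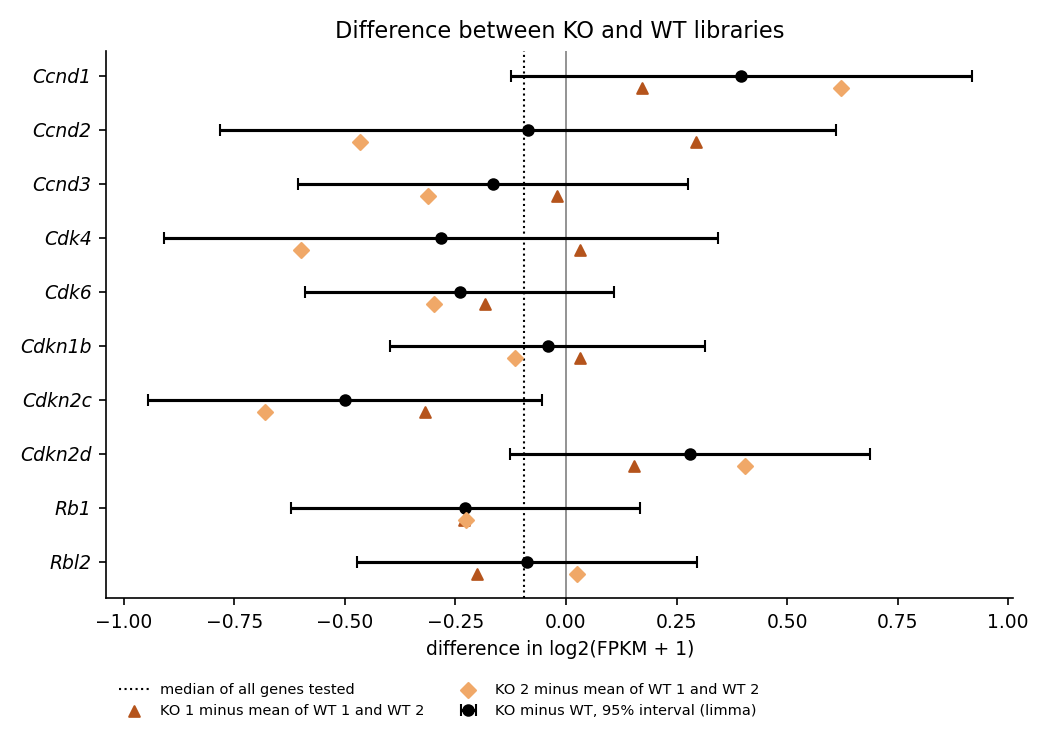
Difference in log2(FPKM + 1) between KO and WT for each of the 10 genes (black point, with the 95% interval from limma), and each KO library minus the mean of WT 1 and WT 2 (triangle for KO 1, diamond for KO 2); the dotted line is the median of all genes tested (-0.09). Only the interval of Cdkn2c (-0.95 to -0.05) leaves out 0 before adjustment, and KO 1 and KO 2 lie on different sides of 0 for Ccnd2, Cdk4, Cdkn1b and Rbl2.

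The order of the levels was much the same in both groups. In wild type it ran from Ccnd3 through Cdk4, Cdkn2d, Cdkn2c, Cdkn1b, Rb1, Cdk6, Ccnd2 and Rbl2 to Ccnd1, and Rb1 and Cdk6 were the neighbours whose ranges over libraries overlapped. In the KO libraries Cdkn2d (mean 80.97 FPKM) stood before Cdk4 (70.53 FPKM) and Ccnd2 (17.42 FPKM) before Cdk6 (17.04 FPKM), but the ranges of each of these pairs overlapped, as did those of Ccnd3 with Cdkn2d, Cdkn2c with Cdkn1b, and Rb1 with Ccnd2. These are levels per exon length, and they depend on the union of annotated exons.

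The genes around this switch were read from a wider list of 51 genes, of which 47 were tested and 0 passed in limma. At an unadjusted p under 0.05 there were 7 lower and 1 higher (6.02% and 6.45% of all genes), and voom gave 0 adjusted and 8 unadjusted calls. Of the 47, 37 were negative (61.7% of all genes were), 28 had both KO libraries under the wild type range (31.7% of all genes) and 4 had both over it (19.7% of all genes), with a median log2 change of -0.25 against -0.09 over all genes. The median stayed negative with median centring (-0.18) and with quantile normalization (-0.19). With B-lineage scaling it became 0.36, below the median of all genes in that setting (0.46). Without KO 1, which leaves KO 2 as the only KO library, 3 of the 47 passed, a share no larger than the 7.1% of all genes called in that setting: Ikzf3, Il7r and Tcf3, with log2 changes of -1.35, -1.40 and -0.93.

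Downstream of the D-type cyclins, a list of cyclin E and A genes with Cdk2 and Cdc25a had 5 of 6 genes tested, and 0 passed. Of the 5, 4 lay below both wild type libraries (31.7% of all genes did): Ccna2, Ccne1, Ccne2 and, by little, Cdk2 at 33.39, 33.08, 30.93 and 30.77 FPKM. Cdc25a, a phosphatase that activates CDK2, was at 14.97, 14.64, 14.27 and 17.36 FPKM, and Ccna1 was listed at 0 in all libraries. Ccna2, the cyclin A of S phase and G2, was at 117.70 and 124.23 FPKM in WT 1 and WT 2, 88.92 FPKM in KO 1 and 77.62 FPKM in KO 2 (log2 change -0.54 ± 0.16, SE; adjusted p = 0.352, limma). Ccne1 was at 31.36, 25.49, 21.20 and 19.40 FPKM and Ccne2 at 25.13, 22.33, 19.02 and 16.69 FPKM, both cyclin E genes that act at the entry into S phase (adjusted p = 0.380 and 0.395). The group median of -0.39 was -0.30 in KO 1 and -0.48 in KO 2, against -0.01 and -0.17 over all genes. With B-lineage scaling the group median was 0.23, below that of all genes (0.46).

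Of 17 E2F, DP and DREAM complex genes, a list of transcription factors and partner proteins, 12 lay below both wild type libraries (31.7% of all genes did), 1 above (19.7% of all genes), and 0 passed. The smallest p-values were those of Tfdp2, a dimer partner of E2F factors, at 8.10, 8.65, 6.67 and 5.49 FPKM, of E2f5 at 7.07, 6.56, 5.35 and 4.60 FPKM, and of the histone-binding Rbbp4 at 50.72, 50.19, 42.35 and 35.44 FPKM (adjusted p = 0.395, 0.398 and 0.420, limma). Of 12 genes of CDK activation and of cyclin or inhibitor turnover, 8 lay below both wild type libraries (31.7% of all genes did) and 0 passed. Skp2, the ubiquitin ligase subunit that marks p27 for destruction, was at 8.32, 8.08, 6.52 and 4.43 FPKM, and its partners Skp1 and Cul1 were at 57.13, 57.00, 42.23 and 40.58 FPKM and at 35.62, 37.35, 31.30 and 29.17 FPKM (adjusted p = 0.395, 0.354 and 0.466). These 6 genes, picked for their small p-values, had KO 2 as their lowest library and KO 1 next to it.

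Of 12 upstream regulators of early B cells tested, 4 lay below both wild type libraries and 3 above, near the shares of all genes (31.7% and 19.7%), and 0 passed. Bcl6, a repressor that acts in pre-B cells, was at 5.91, 6.63, 8.48 and 11.36 FPKM (log2 change 0.58 ± 0.18, SE; adjusted p = 0.370, limma). Ikzf3, which encodes Aiolos and is induced by the pre-B cell receptor, was at 23.16, 27.17, 19.39 and 9.27 FPKM, and Irf4 at 79.29, 112.38, 76.56 and 29.04 FPKM (adjusted p = 0.409 and 0.451). For Ikzf3 and Irf4 the lower value was chiefly that of KO 2, as it was for the B-lineage genes. The other CDK inhibitors were low: Cdkn1a, the p53 target p21, was at 7.39, 8.40, 11.80 and 6.94 FPKM with its sign set by KO 1 (adjusted p = 0.731). Cdkn2a was at 0.59, 0.68, 0.92 and 0.17 FPKM, Cdkn1c at 0.25, 0.48, 0.25 and 0.39 FPKM, and Cdkn2b at 0.05, 0.18 and 0.23 FPKM and listed at 0 in KO 2. These 3 were below the filter, and per exon length all 4 stood lower than Cdkn1b, Cdkn2c and Cdkn2d in every library.

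**Figure D4:**
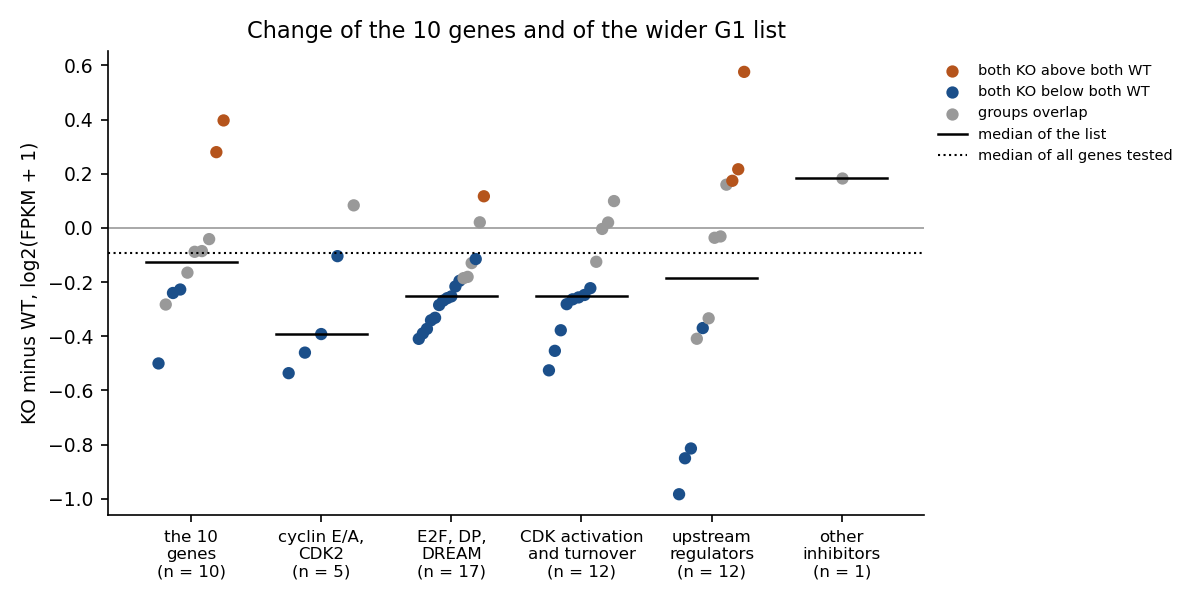
KO minus WT difference in log2(FPKM + 1) of the 10 genes and of the 47 tested genes of the wider list by role, 1 point for each gene, coloured by whether both KO libraries lie above or below both wild type libraries; black bars are list medians and the dotted line is the median of all genes tested (-0.09). The 10 genes spread on both sides of that line (median -0.13), while the E and A cyclin group with CDK2 lies mostly below it (median -0.39, or 0.23 with B-lineage scaling).

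Among the 47 tested genes of the wider list, likeness to each D-type cyclin was measured as the distance between centred log2(FPKM + 1) values over the 4 libraries, where 0 would be an identical pattern. Nearest to Ccnd2 was Myc (distance 0.08), followed by E2f7 (0.23) and E2f1 (0.26). Nearest to Ccnd3 were Cdc37 (0.06), a chaperone of CDK4, then Ccnh (0.10) and E2f4 (0.11). Ccnd1 had no neighbour as close, with Bcl6 at 0.24, Foxo3 at 0.29 and Stat5b at 0.30. Over 4 libraries many genes share a pattern, and these distances are a description only.

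The position of KO 2 bears on all of these values. KO 2 was farther from the wild type mean than KO 1 for 8 of the 10 genes, all but Rb1 and Rbl2. The share of all genes with KO 2 farther was not counted. Over all genes the median difference was -0.01 in KO 1 and -0.17 in KO 2, so this count is not read as a result about the members. In KO 2 the B-lineage list had a median log2 difference from wild type of -1.06, against -0.16 in KO 1, and the neutrophil list one of 1.50, against 0.47. Monocyte genes (8 in the list) were at 0.80 in KO 2 and -0.24 in KO 1, and erythroid genes (12 in the list) at -0.56 and -1.19. Mature B genes had a median of -0.84 in KO 1 and -2.07 in KO 2, with 4 of 5 tested below both wild type libraries (31.7% of all genes did), and held 1 call, as did the plasma cell genes (-0.27 and -1.38). Those called, named after their values were seen, were Fcer2a (4.03, 3.82, 0.22 and 0.17 FPKM, adjusted p = 0.0476, limma) and Jchain (105.85, 91.45, 0.25 and 0.45 FPKM, adjusted p = 0.00135, limma). Of 5 plasma cell genes tested, 3 lay below both wild type libraries and 1 above (31.7% and 19.7% of all genes did). Neither list was uniform: log2 changes were 0.27 for Xbp1 and -0.02 for Mzb1 (plasma cell) and 0.34 for Cd40 (mature B). Plasmacytoid dendritic genes lay above both wild type libraries in 4 of 5 cases (19.7% of all genes did), with 0 calls. None of the B-lineage, neutrophil, monocyte or erythroid markers was at 0 in any library. The part of these other cells in the values of Ccnd3, Cdk4, Cdkn2c, Cdkn2d and Ccnd1 was not tested. With B-lineage scaling, which shifts the median of all genes by 0.55, the split of all calls went from 27 lower and 0 higher to 136 lower and 292 higher, and 0 of the 10 genes passed. The other settings that gave 0 of the 10 called 0.113% of all genes (pseudocount of 0.1), 0% (no filter), 0.525% (filter of 5 FPKM), 0.196% (quantile normalization), 0.181% (median centring), 0.211% (no trend), 0.0678% (voom), 0.512% (replicate block), 1.6% (crossed block), 0.105% (without WT 1), 0.217% (without WT 2) and 0% (without KO 2). B-lineage scaling called 3.22%. Relative to the median of all genes, Ccnd1 (0.49 as deposited, 0.47 with this scaling) and Cdkn2d (0.37 and 0.46) stayed above it and Cdkn2c (-0.41 and -0.33) below it, whereas Ccnd3 was at -0.07 and 0.02.

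**Figure D5:**
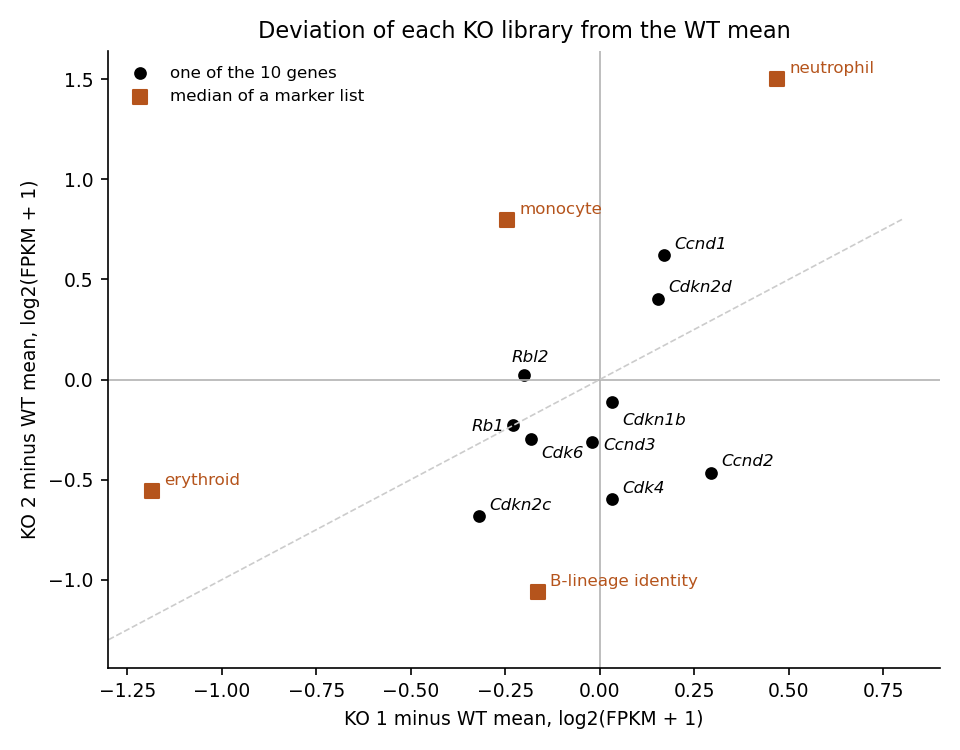
Difference in log2(FPKM + 1) from the wild type mean in KO 1 (horizontal axis) and KO 2 (vertical axis) for the 10 genes (black points) and for the medians of 4 marker lists (squares); the dashed line marks equal differences. The B-lineage list lies at -0.16 and -1.06 and the neutrophil list at 0.47 and 1.50, and Cdkn2c, Cdk6 and Rb1 are negative in both libraries while Ccnd1 and Cdkn2d are positive in both, as deposited and without rescaling.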

How the data were processed

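RNA-seq of 4 libraries was analysed. The authors deposited 1 FPKM value for each gene and library, with 2 decimals, per the file headers. The submitters' processing notes name mm9. The aligner, counter and strand setting were not given in the sources used here. Gene symbols (55394 of 55573 identifiers), exon lengths and GRCm38 coordinates were taken from GENCODE M21, as the files hold none; Skp1 was found as Skp1a through RefSeq synonyms. Depth came from low values, which were whole multiples of 1 fragment in 99.5% to 99.6% of cases (tolerance 0.15 fragments, chance 30%). Estimates in fragments cover counting error only.

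Limma 3.58.1 (R 4.3.3) was fitted without covariates, with a mean-variance trend, to log2(FPKM + 1), which understates changes of low genes. The threshold was an adjusted p of 0.05. The fit was tested on simulated data. Replicate numbers paired nothing that the labels name, and deviations of same-numbered libraries correlated at -0.15 over 13281 genes.

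The 10 genes, the lists and the tests were chosen with earlier results of these data known. Named from the wider list were the 3 smallest p-values of each role, untested inhibitors, and the 3 genes nearest to each D-type cyclin. Mycn, Tspan31, LTO1, Cdk2, Cdc25a, Ccna1, Il7r and Tcf3 were named after their values were seen. So were Aktip, Gm45464, Rcbtb2, Lpar6, Xbp1, Mzb1 and Cd40. Alternatives covered the pseudocount, filter, scaling, trend, voom, blocks and leaving out each library. The level of 1 defining marker of the labelled cells is not reported here.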

Additional observations from a re-analysis of the deposited data

How the results depend on the processing

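With 14 alternatives, 124 of 139 values of single members kept their sign and stayed short of the threshold, and 14 changed sign. The remaining value, Cdkn2c without KO 1, crossed the threshold in a fit with 1 KO library, which holds no spread between KO libraries. Of the alternatives, 5 (filters, no trend and both blocks) cannot move a fold change, so at most 9 bear on its sign. Leaving out 1 library cannot turn the sign of a gene whose groups do not overlap. B-lineage scaling turned Ccnd2 (0.52), Ccnd3 (0.47), Cdk4 (0.35), Cdk6 (0.37), Cdkn1b (0.59), Cdkn2c (0.13), Rb1 (0.39) and Rbl2 (0.50). Cdkn1b also turned with quantile normalization and median centring (0.0284 and 0.0271). Leaving out 1 library gave ranges of -0.46 to 0.29 for Ccnd2, -0.60 to 0.0327 for Cdk4, -0.11 to 0.0315 for Cdkn1b and -0.20 to 0.0249 for Rbl2. The cause was not tested.

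Members called numbered 0 to 1 and genes of the wider list called 0 to 3 when 1 library was left out. Over all genes the count was 15 with a pseudocount of 0.1, 0 with no filter (2257 at an unadjusted p under 0.05), 43 with the stricter filter of 5 FPKM, 428 with B-lineage scaling and 9 with voom. Without 1 library it ran from 0 (without KO 2, 1969 unadjusted) to 948 (without KO 1), with 14 without WT 1. The replicate block gave 68 calls and, chosen after seeing the data, the crossed block 213; under each, 0 members passed. The labels do not say that a number marks a shared animal or day, and same-numbered libraries correlated at -0.15.

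Leaving out 1 library kept the sign of the differences in Ccnd1 share (0.35 to 2.84 percentage points), Ccnd3 share (-3.19 to -1.07) and Cdkn2d share (7.97 to 17.2). It could not have changed these signs, because by FPKM both KO libraries lay on the same side of both wild type libraries. By estimated fragments the Ccnd3 share of KO 2 lay inside the wild type range. It changed the sign for the Ccnd2 share (-1.78 to 2.84), the Cdk6 share (-2.36 to 3.34) and the inhibitor to kinase ratio (-0.02 to 0.55). Ccnd1 was below the stricter filter, so that setting gives it no value.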
